A study of Homo sapiens with 8 samples.

Results

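The clustered protocadherin genes are 3 tandem gene arrays on chromosome 5, named alpha (PCDHA), beta (PCDHB) and gamma (PCDHG). The members were the genes whose names begin with PCDHA, PCDHB or PCDHG followed by a digit, A, B or C, which gave 34 of the 25377 genes of the RNA table: 2 alpha, 8 beta and 24 gamma genes. The ATAC-seq peaks of the window around them were taken as well, 33 of 70312 peaks, the first starting at 140699953 and the last ending at 141599742 of chromosome 5 (hg38). Of these, 0 overlapped the alpha array, 2 the beta array, 12 the gamma array and 19 lay beside them. The genes were chosen by name, but as a group whose change between the genotypes was already known, so the counts of changed members below describe them and are no test of the group. Raji is a B lymphoblast line from a Burkitt lymphoma. Raji cells with the RGS-SE knockout, a CRISPR/Cas9 deletion aimed at a super-enhancer of chromosome 1 and made with Cas9 and a pair of guide RNA plasmids under puromycin selection, were compared with wild-type Raji cells, with 2 RNA-seq and 2 ATAC-seq libraries per genotype and 8 libraries in all. The knockout cells were single clones whose number is not given, so the deletion and the history of a clone cannot be told apart.

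Clustered protocadherins are adhesion proteins of the cadherin superfamily. In neurons, where they are best known, each cell reads a few of the promoters of these arrays, and the set of isoforms on the surface lets a cell tell its own branches from those of other cells. Each alpha and gamma gene has a promoter and a variable exon of its own, which is spliced to constant exons shared by the whole array, while each beta gene is a single exon. The gamma array holds A genes, B genes and, at its far end, the C genes PCDHGC3, PCDHGC4 and PCDHGC5. Most of the promoters carry a conserved sequence element with a CGCT core. CTCF, an architectural protein that anchors chromatin loops together with cohesin, binds these promoters and distal enhancers, and promoters that are not chosen are kept silent by DNA methylation. In the mouse, a control region for the arrays lies downstream of the gamma genes.

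The sequence around a CGCT is shown for the 7 gamma genes whose RNA passed the test between the genotypes, with these letters in capitals. Each holds 30 bases of the plus strand, from the RefSeq promoters of GRCh38.p14. Where a promoter held several CGCT on this strand, as those of PCDHGB3 (2), PCDHGB4 (4) and PCDHGC3 (5) did, the one that matched most letters of the longer run CGCTGT is shown, and of equal matches the one farthest upstream.
PCDHGB2: acctctgagcgtCGCTgttggtcaaaagaa
PCDHGB3: ggcgccgggtgcCGCTcttggctagtgctg
PCDHGA6: gactctaagcgtCGCTgttgaccaacctgg
PCDHGB4: gactctgggcgcCGCTgttggccaaagtgg
PCDHGA8: gactgtaagcgcCGCTgttcacctactgga
PCDHGC3: gactctgtgtgcCGCTgtcggccaatgaag
PCDHGC4: gagcccgggagcCGCTgtctgccaatcggg
The CGCT shown lay 40 to 199 bases before the RefSeq start of the gene. The letters CGCT, searched on both strands, stood in 20 of 20 gamma promoters, 14 of 14 beta promoters and 12 of 13 alpha promoters of the table, and in 70% of its 35116 promoters of 300 bases (250 before the start and 50 after it). The longer run CGCTGT, which contains the core, stood in 17 gamma, 1 beta and 7 alpha promoters and in 11.2% of all promoters. Of the 7 genes above, PCDHGB3 was the exception without CGCTGT, so genes that rose and genes that fell both had these letters. A match of the letters does not by itself show the conserved element, and whether each promoter holds the element was not tested. The 47 promoters of the 3 arrays in the table covered 28 of the 34 members.

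The whole promoters of PCDHGB3, whose RNA and promoter peak both rose in the knockout (chr5:141369992-141370291, plus strand), and of PCDHGC3, whose RNA fell (chr5:141475716-141476015, plus strand), are shown first. The central 300 bases of the peak just past the gamma genes, which had the lowest log2 fold change of the 5 peaks at that end (chr5:141513075-141513374, hg38, plus strand) follow. In all 3 sequences each CGCT on the plus strand is in capitals.
PCDHGB3 promoter: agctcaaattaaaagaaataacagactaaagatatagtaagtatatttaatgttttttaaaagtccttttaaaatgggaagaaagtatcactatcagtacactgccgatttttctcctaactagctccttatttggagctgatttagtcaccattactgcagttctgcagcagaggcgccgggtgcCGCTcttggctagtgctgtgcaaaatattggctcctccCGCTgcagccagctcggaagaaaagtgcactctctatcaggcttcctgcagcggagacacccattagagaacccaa
PCDHGC3 promoter: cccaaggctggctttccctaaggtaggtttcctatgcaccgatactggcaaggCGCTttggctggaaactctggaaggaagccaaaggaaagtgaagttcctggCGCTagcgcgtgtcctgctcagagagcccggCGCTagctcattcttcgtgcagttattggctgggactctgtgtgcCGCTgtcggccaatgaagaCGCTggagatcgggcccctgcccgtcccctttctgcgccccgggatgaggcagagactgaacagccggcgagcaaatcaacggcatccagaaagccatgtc
peak past the gamma genes: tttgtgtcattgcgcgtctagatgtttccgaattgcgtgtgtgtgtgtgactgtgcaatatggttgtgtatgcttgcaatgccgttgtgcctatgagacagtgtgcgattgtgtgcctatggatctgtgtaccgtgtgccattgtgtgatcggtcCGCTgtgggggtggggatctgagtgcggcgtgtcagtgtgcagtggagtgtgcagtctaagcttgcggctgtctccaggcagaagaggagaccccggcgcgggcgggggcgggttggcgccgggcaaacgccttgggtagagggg
The PCDHGB3 promoter had 43% G or C and the PCDHGC3 promoter 59%.

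For each gene the RNA table gave 1 mean over the 4 libraries, of normalised counts, and from that mean the reads of each library were recovered as whole numbers for every member. The size factors, which scale with library depth, were 1.03 and 1.07 in the knockout and 1.30 and 0.717 in wild type. The 2 wild-type libraries are called the deeper and the shallower one below. The shallower one stood apart. Of 7502 tested genes with recovered reads, 210 (2.8%) had 0 reads in 1 knockout library and at least 5 in the other, while 962 (12.8%) had 0 reads in the shallower wild-type library and at least 5 in the deeper one. Among gamma members, 8 of 24 (33.3%) had 0 reads in the shallower and at least 5 in the deeper wild-type library. Which genotype is on top of the fold change is not stated in the deposited tables. Positive values are read here as higher in the knockout, since 1 peak of the targeted interval, on chromosome 1 from 192609102 to 192609836, was nearly absent on one side (fitted count 0.186 on the side read as knockout and 622 on the side read as wild type, log2 fold change -11.71, SE 1.45, adjusted p = 2.16e-14, DESeq2 Wald test, authors' deposited table). The other 17 peaks of the interval had log2 fold changes from -0.97 to 1.14, 3 of them higher and 2 lower. In the RNA table, the noncoding gene ENSG00000289995, which starts within the lost peak, had 0 reads in both libraries read as knockout and 44 and 2 in those read as wild type (fitted log2 fold change -6.72, which is no bound, SE 2.28, adjusted p = 0.0211, DESeq2 Wald test, authors' deposited table), while RGS1 of the same interval was higher, with a log2 fold change of 3.49. Of 863 genes past the threshold both in RNA and in a promoter peak, 764 (88.5%) had the same sign in both tables. With the opposite coding, all directions below would turn.

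In the knockout, RNA of 2 gamma C genes fell and RNA of 5 gamma A and B genes rose. PCDHGC3 and PCDHGC4 fell, PCDHGB2, PCDHGB3, PCDHGB4, PCDHGA6 and PCDHGA8 rose, and the other 14 tested gamma members did not pass the test. Of the 24 members with an adjusted p, 7 were past an adjusted p of 0.05, all of them gamma genes, where 19.2% of the 17013 tested genes were past it in either direction, 9.89% higher and 9.28% lower in the knockout. All tested members but PCDHGC3 had a mean up to 200, and of the 7501 tested genes with such a mean 380 were higher and 284 lower. The other 10 members had no adjusted p, like every gene of the table with a mean of 4.30 or less. The cells were measured in bulk, so fewer cells with an RNA and less of it per cell cannot be told apart.

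**Figure D1:**
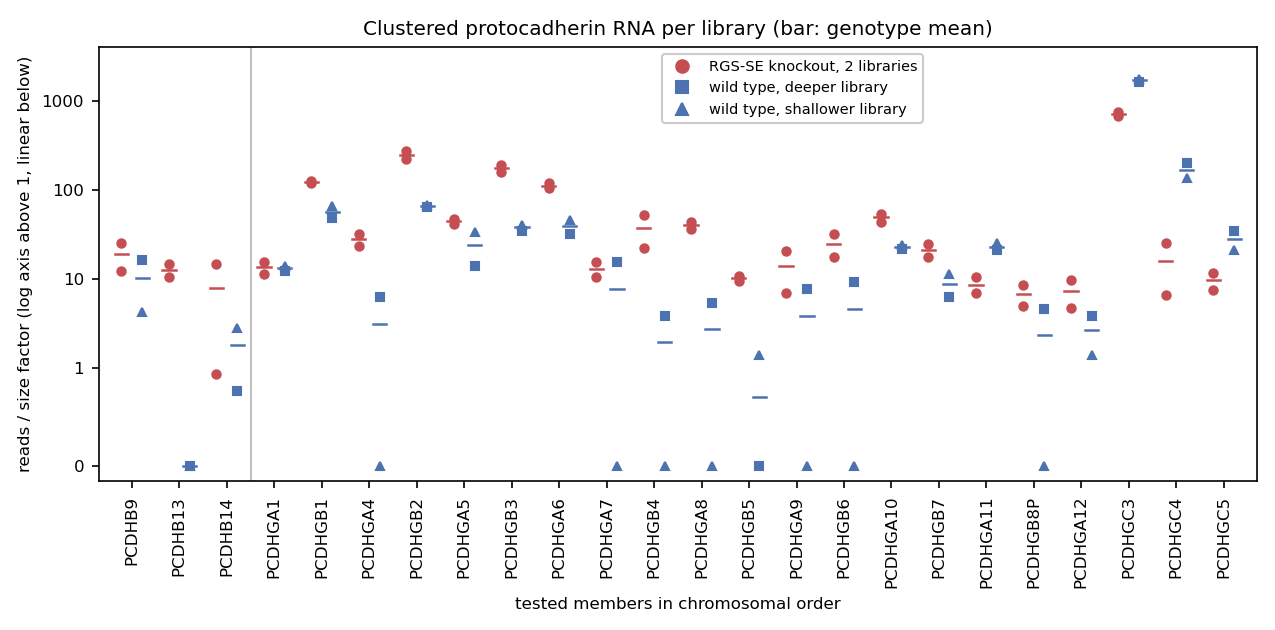
Reads divided by the size factor for the 24 tested members in chromosomal order, on an axis that is logarithmic above 1 and linear below, with a point per library and a bar for the mean of the 2 libraries; knockout libraries stand left of wild-type libraries, and the vertical line parts beta from gamma genes. PCDHGC3 and PCDHGC4 lie lower in both knockout libraries, and most A and B genes lie higher there.

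PCDHGC3, the C gene nearest to the B and A genes, was the member with the most reads. It had 768 and 716 reads in the knockout libraries, against 2109 and 1269 in the deeper and the shallower wild-type library. Divided by the size factors these were 746 and 672 in the knockout and 1619 and 1770 in wild type, so the genotypes did not overlap and the level was lower in both knockout libraries. The log2 fold change in the authors' deposited table was -1.26 (SE 0.20, adjusted p = 9.71e-09, DESeq2 Wald test). Per kb of exon shared with no other gene of its strand, PCDHGC3 averaged 218 normalised counts in the knockout and 521 in wild type. This was the highest level of any member in both genotypes. The gene spans 141475947 to 141512977 on the plus strand.

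PCDHGC4, the next gene downstream (141484997 to 141512975), fell by more. It had 26 and 7 reads in the knockout libraries, against 258 and 96 in wild type. Both knockout libraries were lower than both wild-type libraries, and the 2 knockout libraries differed from each other by a larger ratio than the wild-type ones did. The deposited log2 fold change was -3.39 (SE 0.64, adjusted p = 3.14e-06, DESeq2 Wald test, authors' deposited table). PCDHGC5 had 12 and 8 reads in the knockout, against 45 and 15 in wild type, lower in both knockout libraries, but its fold change did not pass the test (log2 -1.54, SE 1.10, adjusted p = 0.380, DESeq2 Wald test, authors' deposited table). The calls of PCDHGC3 and PCDHGC4 held under every alternative setting tried and without any 1 library, but the size of the PCDHGC4 change rested on single libraries: its log2 fold change was -4.66 without the knockout library of size factor 1.03 and -2.72 without that of 1.07.

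Among the B genes, PCDHGB2 had 279 and 233 reads in the knockout, against 84 and 48 in wild type. Its normalised counts were 271 and 219 in the knockout and 64.5 and 67.0 in wild type, with no overlap. In the authors' deposited table its log2 fold change was 1.90 (SE 0.41, adjusted p = 7.28e-05, DESeq2 Wald test). PCDHGB3 had 162 and 201 reads in the knockout, against 45 and 29 in wild type, again with both knockout libraries above both wild-type libraries. Its log2 fold change in the authors' deposited table was 2.21 (SE 0.50, adjusted p = 1.24e-04, DESeq2 Wald test). Per kb of their own exons, PCDHGB2 averaged 92.9 normalised counts in the knockout and 24.9 in wild type, and PCDHGB3 66.6 in the knockout and 14.4 in wild type.

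PCDHGB4 had 23 and 55 reads in the knockout, against 5 and 0 in wild type. The 0 came from the shallower wild-type library. PCDHGB4 rose by 4.09 on the log2 scale (SE 1.34, adjusted p = 0.0161, DESeq2 Wald test, authors' deposited table). PCDHGA8, an A gene with 37 and 46 reads in the knockout and 7 and 0 in wild type, rose likewise, by 3.72 (SE 1.25, adjusted p = 0.0189, DESeq2 Wald test, authors' deposited table). For PCDHGA6 there were 106 and 126 reads in the knockout, against 41 and 33 in wild type, and the log2 fold change was 1.53 (SE 0.57, adjusted p = 0.0431, DESeq2 Wald test, authors' deposited table). These 3 calls were the least firm. PCDHGA6 lost its call without any 1 of the 4 libraries (log2 fold changes from 1.26 to 1.81). PCDHGB4 and PCDHGA8 lost theirs without the knockout library of size factor 1.07 (3.36 and 3.59) and without the shallower wild-type library (3.27 and 2.88), and had no value without the deeper one.

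**Figure D2:**
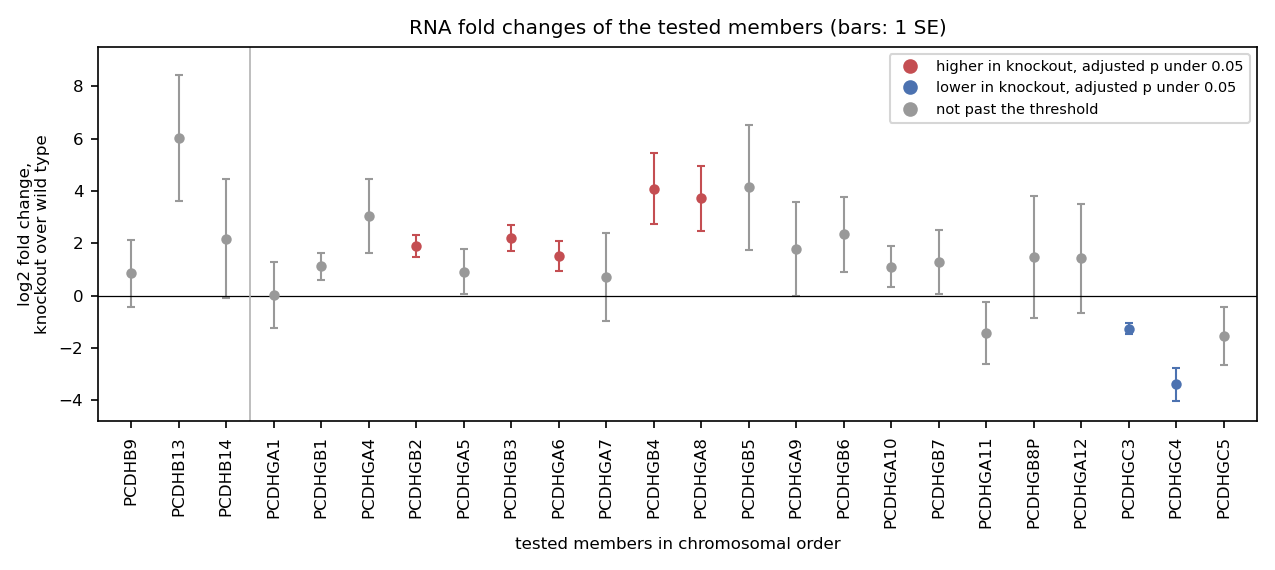
The log2 fold change, knockout over wild type, of the 24 tested members in chromosomal order, with bars of 1 SE, from the authors' deposited table. The called increases lie between PCDHGB2 and PCDHGA8, with log2 fold changes from 1.53 to 4.09, and the called decreases are PCDHGC3 and PCDHGC4 at the far end of the array.

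The 5 genes called higher stand in one stretch of the array, from PCDHGB2 (start 141359994) to PCDHGA8 (start 141390157), with PCDHGA5 and PCDHGA7 between them. It is a stretch of calls and no limit of the rise. PCDHGA4 upstream and PCDHGB5 downstream had fitted log2 fold changes of 3.05 and 4.14, at lower means, without passing the test. PCDHGA5 had 42 and 50 reads in the knockout and 18 and 24 in wild type, and PCDHGA7 had 16 and 11 in the knockout and 20 and 0 in wild type. Neither passed the test (adjusted p = 0.539 and 0.855, DESeq2 Wald test, authors' deposited table). Upstream of the stretch, PCDHGB1 had 122 and 133 reads in the knockout and 62 and 47 in wild type (log2 fold change 1.11, SE 0.52, adjusted p = 0.126, DESeq2 Wald test, authors' deposited table). An exon of an annotated gene on the other strand covers 554 bases of its own exon, and whether reads were counted by strand is not given. PCDHGA4 had 24 and 34 reads in the knockout, against 8 and 0 in wild type (log2 fold change 3.05, SE 1.41, adjusted p = 0.117, DESeq2 Wald test, authors' deposited table). PCDHGA1, the first gene of the array, had 16 and 12 reads in the knockout and 16 and 10 in wild type, with overlapping libraries and a fitted difference of 0.03 on the log2 scale (SE 1.26, adjusted p = 0.993, DESeq2 Wald test, authors' deposited table).

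Downstream of PCDHGA8, no A or B gene passed the test. PCDHGB5 had 11 and 10 reads in the knockout and 0 and 1 in wild type. Its ratio, with reads divided by the summed size factors, was 20.2 (95% exact interval 3.26 to 837, counting error only). In the authors' deposited table its log2 fold change was 4.14 (SE 2.39, adjusted p = 0.241, DESeq2 Wald test). PCDHGB6 had 18 and 34 reads in the knockout, against 12 and 0 in wild type, and PCDHGA9 had 7 and 22 in the knockout, against 10 and 0 in wild type. PCDHGA10, with 45 and 57 reads in the knockout and 28 and 17 in wild type, and PCDHGB7, with 18 and 26 in the knockout and 8 and 8 in wild type, were higher in both knockout libraries once divided by the size factors. PCDHGA12 had 10 and 5 reads in the knockout and 5 and 1 in wild type, and the pseudogene PCDHGB8P had 5 and 9 in the knockout and 6 and 0 in wild type. The log2 fold changes of these 6 genes ran from 1.11 (PCDHGA10) to 2.34 (PCDHGB6), and their adjusted p from 0.284 to 0.760 (DESeq2 Wald test, authors' deposited table). PCDHGA11 went the other way, with 7 and 11 reads in the knockout, against 27 and 18 in wild type, but did not pass the test either (log2 fold change -1.42, SE 1.18, adjusted p = 0.474, DESeq2 Wald test, authors' deposited table).

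Of the 18 tested A and B members, 17 had a fold change above 0 in the authors' deposited table, with a median log2 fold change of 1.496, where the median of all tested genes was 0.02, that of the 7501 tested genes with a mean up to 200 was 0.10 and that of the tested genes of chromosome 5 was 0.13. Both knockout libraries were above both wild-type libraries in 14 of the 21 tested gamma members and below them in 4, with 3 overlapping. Over all 7502 tested genes with recovered reads, 29.5% lay above and 21% below in this way. Among gamma members without an adjusted p, PCDHGB9P, a pseudogene, had 2 and 10 reads in the knockout and 0 in both wild-type libraries, at least 3.81-fold higher against 3 counts over the wild-type group. PCDHGA2 had 5 and 1 reads in the knockout and 5 and 0 in wild type, and PCDHGA3 had 0 and 4 in the knockout and 0 in wild type.

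The test on which these calls rest draws on the spread between 2 libraries per genotype. When every Wald statistic of the RNA table was divided by the robust SD of the statistics (1.70), PCDHGC3 and PCDHGC4 stayed past the threshold and the 5 increases did not (adjusted p = 0.117 for PCDHGB2 and 0.137 for PCDHGB3, Benjamini-Hochberg over the tested genes of the DESeq2 table).

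Summed over the 24 gamma members, the knockout libraries held 1761 and 1821 gamma reads, and the deeper and the shallower wild-type library 2819 and 1616. After division by the size factors these were 1710 and 1709 in the knockout and 2163 and 2254 in wild type, a ratio of 0.774. PCDHGC3 made up 43.6% and 39.3% of the gamma reads in the knockout libraries, against 74.8% and 78.5% in wild type. The 9 B genes made up 36.3% and 39.0% in the knockout, against 7.88% and 8.23% in wild type, and the 12 A genes 17.9% and 20.8% in the knockout, against 6.56% and 6.37% in wild type. PCDHGC4 took 1.48% and 0.384% in the knockout and 9.15% and 5.94% in wild type. For no one of these 4 shares did the 95% exact (Clopper-Pearson) intervals of a knockout and a wild-type library overlap: the closest bounds were 45.97% in the knockout and 73.2% in wild type for PCDHGC3, 34.1% and 9.68% for the B genes, 16.1% and 7.68% for the A genes, and 2.16% and 4.84% for PCDHGC4. For PCDHGC5, at 0.681% and 0.439% in the knockout and 1.60% and 0.928% in wild type, the intervals of both knockout libraries overlapped that of the shallower wild-type library. The intervals cover counting error only. In mean normalised counts the B genes together were at 644 in the knockout and 178 in wild type, a ratio of 3.62, and the A genes at 331 in the knockout and 143 in wild type, a ratio of 2.32. Reads fell on 23 and 24 of the gamma genes in the knockout libraries, and on 21 and 14 in the deeper and the shallower wild-type library.

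**Figure D3:**
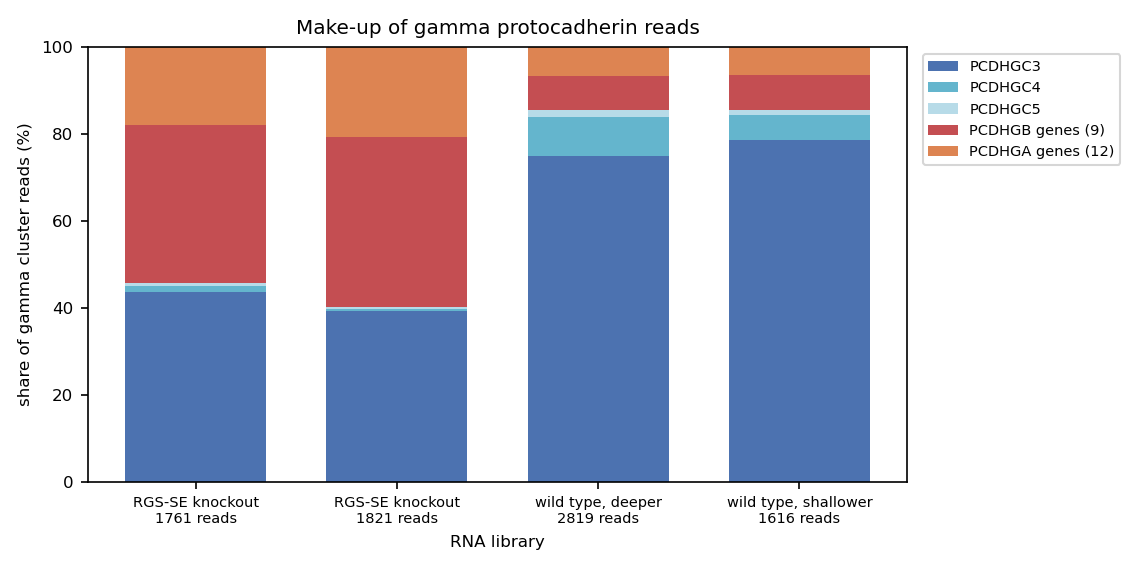
Share of the gamma reads of each RNA library, in percent, that fell on PCDHGC3, PCDHGC4, PCDHGC5, the 9 PCDHGB and the 12 PCDHGA genes, with knockout libraries left of wild-type libraries and the number of gamma reads under each bar. PCDHGC3 takes 43.6% and 39.3% in the knockout and 74.8% and 78.5% in wild type.

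Reads on the constant exons of the array cannot be given to 1 gene. These exons, on chromosome 5 from 141494807 to 141494865 (59 bases), from 141505393 to 141505481 (89 bases) and from 141510947 to 141512975 (2029 bases), belong to 22 of the 24 annotated gamma genes in GENCODE release 44. Several genes of the array had 0 reads in a library, so reads of these exons were not added to each gene. PCDHGB4 and PCDHGA8 share further exon bases beyond the constant exons. In PCDHGB4, 2459 of 6902 exon bases were in no other gene of its strand, and in PCDHGA8 4214 of 8657. Reads on the shared bases cannot be given to 1 gene either. The sources used here do not give the counting settings, and the total RNA of the array, constant exons included, was not measured by this table.

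The beta array showed few reads, and 0 of its 3 tested members passed the DESeq2 Wald test of the authors' deposited table (unadjusted p = 0.0124 for PCDHB13, the lowest of the 3). Its 8 members held 63 and 32 reads in the knockout libraries, against 22 and 5 in wild type. PCDHB13 had 15 and 11 reads in the knockout and 0 in both wild-type libraries, at least 8.38-fold higher against 3 counts over the wild-type group. The fitted log2 fold change of 6.03 (SE 2.41, adjusted p = 0.0610, DESeq2 Wald test, authors' deposited table) depends on the fit and is no bound. PCDHB14 had 15 and 1 reads in the knockout, against 1 and 2 in wild type, so 1 knockout library carried its difference (ratio 5.14, 95% exact interval 1.47 to 27.5, counting error only; adjusted p = 0.598, DESeq2 Wald test, authors' deposited table). PCDHB9, the beta gene with the highest mean, had 26 and 13 reads in the knockout and 21 and 3 in wild type, with overlapping libraries (log2 fold change 0.85, SE 1.29, adjusted p = 0.745, DESeq2 Wald test, authors' deposited table). The members without an adjusted p included PCDHB11, with 2 and 4 reads in the knockout and 0 in wild type (at least 1.92-fold higher against the same limit). Another was PCDHB18P, named as a pseudogene but annotated as a long noncoding RNA, with 4 and 0 reads in the knockout and 0 in wild type. The other 3 had 1 or 2 reads in 1 knockout library.

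The alpha array was near 0 in both genotypes. PCDHA10 had 0 and 1 reads in the knockout and 0 in wild type, and PCDHA1 had 0 in both knockout libraries and 5 and 0 in wild type. Exons on the other strand cover 2719 of the 2726 bases that PCDHA1 shares with no other gene of its strand. Its reads may therefore belong to another gene where strand was not used. Of the 16 annotated alpha and 20 annotated beta genes, those beyond these 2 and 8 were not analysed here. At this depth no difference in the alpha array was detectable.

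Most promoter peaks of the gamma genes, measured by ATAC-seq, did not pass the test. Each ATAC library was made from about 50000 cells, and values per library were not recovered, so each peak is given by its count per genotype fitted from the deposited mean and fold change. Of the window peaks, 8 lay over the annotated start of a gamma gene, 1 higher and 1 lower in the knockout, with a summed fitted count of 968 in the knockout and 967 in wild type (100.1%). Over all peaks 35.9% were past the threshold in either direction, 20.4% higher and 15.5% lower, and 34.2% of the promoter peaks were. The peak over the start of PCDHGB3 (141369802 to 141370601) had a fitted count of 176 in the knockout and 92.8 in wild type (log2 fold change 0.92, SE 0.23, adjusted p = 2.80e-04, DESeq2 Wald test, authors' deposited table). The peak of PCDHGB2, whose RNA rose as well, had 86.7 in the knockout and 78.1 in wild type and did not pass the test (log2 fold change 0.15, SE 0.31, adjusted p = 0.754, DESeq2 Wald test, authors' deposited table). Over the start of PCDHGC3 (141475573 to 141476483), the peak with the highest mean of these, the fitted count was 391 in the knockout and 460 in wild type (log2 fold change -0.24, SE 0.12, adjusted p = 0.130, DESeq2 Wald test, authors' deposited table). The peak of PCDHGA12 (141430361 to 141430672) was lower, at 13.6 in the knockout and 32.7 in wild type (log2 fold change -1.26, SE 0.53, adjusted p = 0.0464, DESeq2 Wald test, authors' deposited table). The peaks of PCDHGA1, PCDHGB1, PCDHGA10 and PCDHGB7 did not pass the test (log2 fold changes 0.01, 0.27, -0.48 and 0.09). PCDHGA6, PCDHGB4, PCDHGA8 and PCDHGC4, whose RNA changed, had no peak over their start in the table.

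Accessibility was lower at the far end of the gamma array. Between the first constant exon and DIAPH1, the neighbouring gene for a formin that nucleates actin filaments, stood 5 peaks. Of these, 4 were lower in the knockout, where 20.4% of all peaks were higher and 15.5% lower. The summed fitted count of the 5 was 2632 in the knockout and 3703 in wild type (71.1%). This interval was not among the planned groups of peaks. The peak from 141513004 to 141513444, whose first base lies 27 bases past the last gamma base and whose sequence is shown above, had a fitted count of 220 in the knockout and 443 in wild type (log2 fold change -1.01, SE 0.15, adjusted p = 1.60e-10, DESeq2 Wald test, authors' deposited table). Its neighbour from 141513709 to 141514551, the peak with the highest mean of the window, had 972 in the knockout and 1363 in wild type (log2 fold change -0.49, SE 0.08, adjusted p = 7.43e-09, DESeq2 Wald test, authors' deposited table). In the last intron of the gamma genes, the peak from 141507321 to 141508140 had 662 in the knockout and 999 in wild type (log2 fold change -0.59, SE 0.10, adjusted p = 2.09e-08, DESeq2 Wald test, authors' deposited table). The peak in the same intron from 141509268 to 141509717 did not pass the test (log2 fold change -0.10, adjusted p = 0.596, DESeq2 Wald test, authors' deposited table), and the peak within the last constant exon, from 141511127 to 141511499, was lower by a small amount (log2 fold change -0.31, SE 0.13, adjusted p = 0.0386, DESeq2 Wald test, authors' deposited table). When the ATAC statistics were divided by their robust SD (2.46), 0 peaks of the window stayed past the threshold, and against a 1.5-fold change only the peaks at 141513004 and 141250534 did.

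**Figure D4:**
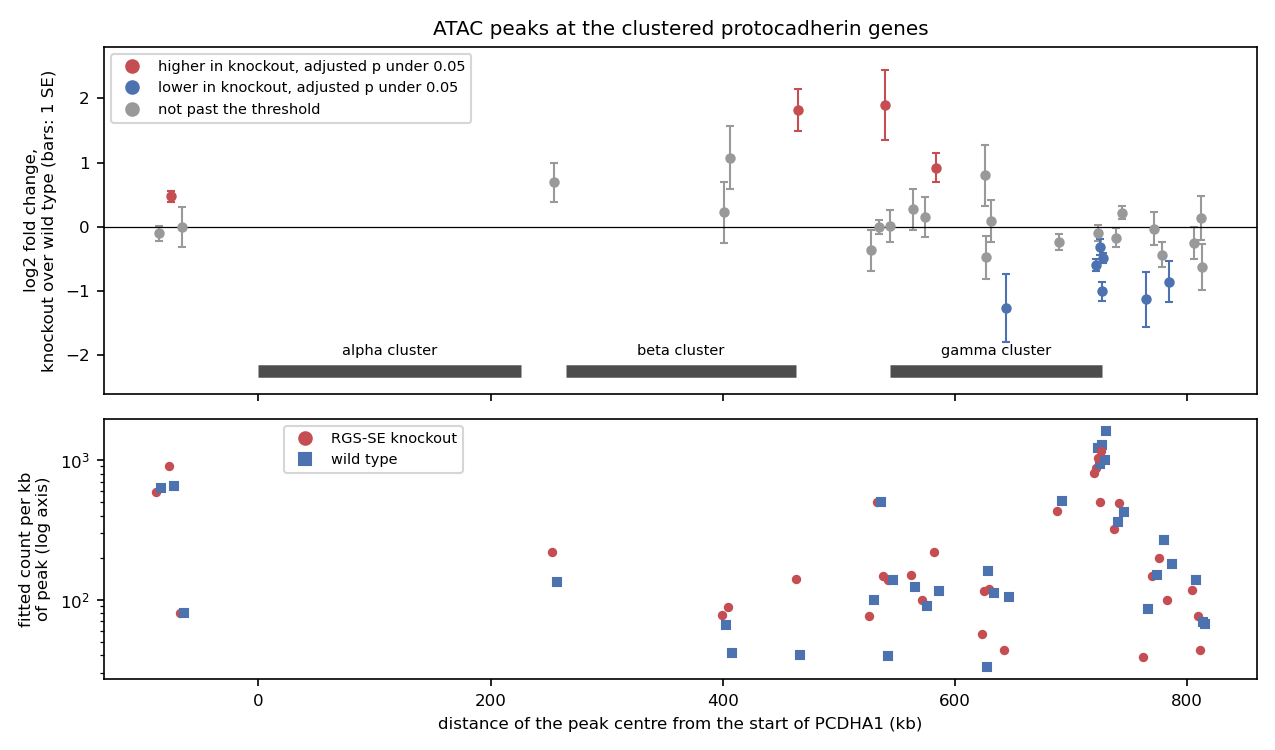
Upper panel, the log2 fold change, knockout over wild type, of the 33 ATAC peaks of the window with bars of 1 SE, against the distance of the peak centre from the start of PCDHA1 in kb; dark bars mark the 3 arrays. Lower panel, the count per kb of peak fitted for each genotype, on a log axis, with knockout points drawn just left of wild-type points. Of the 7 peaks called lower, 4 lie at the far end of the gamma array, and the alpha array holds no peak.

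The beta array held 2 peaks, over the starts of PCDHB9 and PCDHB10, and neither passed the test (log2 fold changes 0.23 and 1.07, adjusted p = 0.755 and 0.0739, DESeq2 Wald test, authors' deposited table). Just past its end, nearest to PCDHB15, the peak from 141250534 to 141251308 was higher, at 109 in the knockout and 30.9 in wild type (log2 fold change 1.82, SE 0.33, adjusted p = 2.67e-07, DESeq2 Wald test, authors' deposited table). PCDHB15 itself had 1 read in 1 knockout library. A peak upstream of PCDHGA1, from 141326074 to 141326334, was higher as well, at 38.7 in the knockout and 10.4 in wild type (log2 fold change 1.90, SE 0.54, adjusted p = 0.00233, DESeq2 Wald test, authors' deposited table). The whole alpha array lay within a stretch of 320.07 kb without a peak, from 140720918 to 141040988. Of the 33 peaks of the window, 4 rose and 7 fell (11 of 33), a share close to the 35.9% past the threshold over all peaks (20.4% higher and 15.5% lower). Their median log2 fold change was -0.03, and the 192 peaks within 2 Mb on either side had a median of -0.02.

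Of the 6 tested genes that overlap the window without being members, 0 rose and ZMAT2, a zinc finger gene of the spliceosome at its upstream edge, fell (log2 fold change -0.78, SE 0.24, adjusted p = 0.0109, DESeq2 Wald test, authors' deposited table). DIAPH1, with the highest mean count of them, was at -0.26 on the log2 scale (SE 0.15, adjusted p = 0.223, DESeq2 Wald test, authors' deposited table), and TAF7, which encodes a TFIID subunit and lies between the beta and gamma arrays, had -0.07 (SE 0.15). SLC25A2, ENSG00000272070 and ENSG00000288095 did not pass the test (0.94, -0.28 and -1.46). Of 55 tested genes within 2 Mb that were no members, 5 rose and 6 fell. Among all tested genes, 9.89% rose and 9.28% fell.

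Genes that act on the arrays were counted from a list of 36 regulators, of which 34 were tested. Of these, 2 rose and 7 fell, where 9.89% of all tested genes were higher and 9.28% lower in the knockout. All tested regulators but DNMT3A had a mean above 200. Of the 7501 tested genes with a mean up to 200, only 380 were higher and 284 lower. Genes with means like those of the list were therefore called more often than the share over all genes shows. CTCF itself was at a fitted count of 4619 in the knockout and 6591 in wild type (log2 fold change -0.51, SE 0.15, adjusted p = 0.00611, DESeq2 Wald test, authors' deposited table). RAD21, a cohesin subunit, also fell (-0.42, SE 0.15, adjusted p = 0.0237, DESeq2 Wald test, authors' deposited table), as did the zinc finger factors MAZ (-0.77) and YY1 (-0.41). The other 9 cohesin genes tested did not pass the test. Of the DNA methyltransferases, DNMT3B, which writes new methylation, was at 224 in the knockout and 452 in wild type (log2 fold change -1.01, SE 0.30, adjusted p = 0.00611, DESeq2 Wald test, authors' deposited table). DNMT1, which copies methylation after replication, fell too (-0.51, SE 0.18, adjusted p = 0.0258, DESeq2 Wald test, authors' deposited table), and DNMT3A did not pass the test (0.42, SE 0.72). SMCHD1, a repressor of the arrays in the mouse, was at -0.01 on the log2 scale (SE 0.19, adjusted p = 0.993, DESeq2 Wald test, authors' deposited table). EHMT2, an H3K9 methyltransferase, fell (-0.88, SE 0.20), while CBX5, which encodes heterochromatin protein HP1 alpha, and TET3, a demethylase of DNA, rose (0.69 and 0.53). The part of these genes in the changes of the arrays was not tested. Against a 1.5-fold change, or with the statistics divided by their robust SD, 0 of the 9 stayed past the threshold.

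Among relatives outside the arrays, from a list of 27 protocadherins, FAT, Dachsous, CELSR and CDHR genes, 6 were tested. PCDH9, a protocadherin of chromosome 13, rose, with a fitted count of 903 in the knockout and 365 in wild type (log2 fold change 1.31, SE 0.24, adjusted p = 2.19e-06, DESeq2 Wald test, authors' deposited table). CELSR3, an atypical cadherin, fell (log2 fold change -0.61, SE 0.22, adjusted p = 0.0322, DESeq2 Wald test, authors' deposited table). DCHS1, CELSR1, CDHR2 and CDHR3 did not pass the test. Of 16 partners of protocadherin tails and of the proteases that cut them, 1 rose and 3 fell. Over all tested genes, 9.89% were higher and 9.28% lower in the knockout. All of the partners but CYFIP1 and NCKAP1 had a mean above 200, where genes were called more often than that. PTK2 and PTK2B encode FAK and PYK2, kinases that bind the constant tail of alpha and gamma protocadherins: PTK2 fell (log2 fold change -1.42, SE 0.22, adjusted p = 2.51e-09) and PTK2B rose (0.74, SE 0.18, adjusted p = 4.51e-04, DESeq2 Wald test, authors' deposited table). ABI1 and ABI3 of the WAVE complex, which drives actin branching, fell (-0.67 and -0.73).

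Raji cells carried the B cell markers in both genotypes. All 8 listed markers were in the table, with MS4A1, which encodes CD20, at 844 CPM (the mean normalised count scaled to the sum over all genes); MS4A1 and BLK rose and CD79B fell (log2 fold changes 1.06, 0.46 and -0.78). Protocadherins of these arrays are best known in neurons, so a list of neuron and neural progenitor markers is given with them. Of its 10 markers, 4 had a value: TUBB3, a neuronal tubulin, was at 68.6 CPM and rose (log2 fold change 1.54, SE 0.20, adjusted p = 1.46e-12, DESeq2 Wald test, authors' deposited table), while MAP2, GFAP and NES were at 0.137, 0.0796 and 0.0130 CPM. MAP2 did not pass the test (log2 fold change -1.44, SE 2.35), and GFAP and NES had no adjusted p. The summed fitted count of the 4 was 3356 in the knockout and 1161 in wild type, of which TUBB3 made up 3348 and 1154, and the part of this change in the gamma result was not tested. T and NK cell markers reached at most 0.176 CPM and myeloid markers at most 1.17 CPM. COL1A1, of the epithelial and fibroblast list, was at 6.19 CPM and rose (log2 fold change 1.10, SE 0.37, adjusted p = 0.0180, DESeq2 Wald test, authors' deposited table). Of the 6 markers of that list, 4 had no value, and KRT8 was at 0.0617 CPM without an adjusted p.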

How the data were processed

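RNA-seq (poly(A) RNA, a stranded kit) and ATAC-seq were made from knockout and wild-type Raji cells. The submitters' processing notes name Trim Galore, Trimmomatic, cutadapt, STAR, featureCounts, Bowtie2, HOMER and DESeq2 with GRCh38/hg38; versions, roles and settings of these tools, and which program called the peaks, were not given in the sources used here. The deposited tables hold DESeq2 results, per the file headers. The deposited signal is the mean count over 4 libraries divided by size factors. The authors' log2 fold change and its SE are on the log2 scale, the authors' Wald score is their ratio, and the deposited p-value and adjusted p come from a two-sided Wald test with Benjamini-Hochberg adjustment. The other deposited unit is HOMER's distance of a peak to a transcription start in bp.

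The tables held 0 columns of values per library, so the planned edgeR test was not possible and the authors' DESeq2 Wald test was used, with an adjusted p under 0.05 (0.00957 was the largest p called among genes). The mean was resolved into whole reads by exhaustive search: all 15866 genes tried (mean up to 200, and all members) had exactly 1 solution. The fold change refitted from these reads was within 0.001 log2 units of the deposited one in 7109 of 7202 tested genes (98.7%). The deposited contrast places each recovered library in its genotype, but not its replicate number. The summed mean was 3.28e+07 in the RNA table, and ATAC depth per library is unknown. The libraries of a genotype are labelled as biological replicates, without saying whether cultures or clones differed. The p-values cover no source of variation beyond these libraries.

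Gene and exon positions came from GENCODE release 44, which held all 25377 gene identifiers. A peak belongs to an array if it overlaps the span from the first to the last base of the array's genes. Own exon bases are those that no other annotated gene of the same strand shares. Fitted counts per genotype follow from the deposited mean and fold change. Recovery and tests were tested on simulated data. Python 3.11.15, numpy 2.4.6, pandas 2.3.3 and scipy 1.17.1 were used. Named were all tested members, the 5 of highest mean among the 10 without an adjusted p, 6 regulators and up to 6 others of smallest adjusted p, up to 6 relatives, all tested neighbours, and peaks over member starts or, per array, up to 4 in each direction of smallest adjusted p and the one with the highest mean; PCDHA10, PCDHGA3, PCDHB15, the partners and the peaks beside the arrays were added after their values were seen. Members and lists were chosen with earlier results of these data known.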

Additional observations from a re-analysis of the deposited data

How the results depend on the processing

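The count of 7 gamma genes past the threshold became 4 (2 higher, 2 lower) against a 1.5-fold change, 4 at an adjusted p under 0.01, and 2 (0 higher, 2 lower) with the statistics divided by their robust SD. Regulators, 9 in the main test, were 0 against a 1.5-fold change and 0 with the robust SD. Relatives, 2 in the main test, were 0 against a 1.5-fold change, 1 with the robust SD and 1 under 0.01. Peaks of the gamma array, 4 in the main test, were 0 against a 1.5-fold change, 0 with the robust SD, 2 under 0.01, and 7 with peaks given by nearest gene, which gave the beta array 1 in place of 0. PCDHGA6 also lost its call with no filter on low means (adjusted p = 0.0642) and with fold changes centred on the chromosome 5 median (0.0655, both Benjamini-Hochberg on the DESeq2 table). The counts of alpha and beta genes and of alpha peaks stayed at 0 in every setting run, and the other counts stayed within 1.5 times the main count under the remaining filters and centrings. For single genes 149 comparisons stayed as in the main test, most of them of genes not called in it, and 13 lost a call. For single peaks 221 stayed as they were, most of them of peaks not called, while 24 lost a call and 2 gained one. In 0 comparisons a call reversed. Only called genes and peaks could lose a call, so these counts do not give the share of calls that held. Each cause was not tested beyond what the setting itself changes.

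Leaving out 1 library at a time, an alternative added after seeing the data, used the recovered reads with the dispersion implied by the deposited SE and the largest called p as threshold. It gave 4 to 6 gamma genes past the threshold: 6 without the knockout library of size factor 1.03, 4 without that of 1.07, 4 without the deeper wild-type library (7 genes had no value) and 4 without the shallower one. A lone library is then assumed to vary like the others. No paired analysis was possible because the recovered libraries carry no replicate number. edgeR with TMM, the replicate block and leaving out ATAC libraries were not run, since the tables hold no values per library. Restricting the recovered reads to members with 1 solution kept all 34. Depth limits the low members: 10 had too few reads for an adjusted p.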
